A study of Schizosaccharomyces pombe with 6 samples.

Results

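The rix1E414K array was 1 of 6 fission yeast tiling arrays that mapped newly made histone H3, and it was set against the 3 arrays of wild-type cells (WT). The array was chosen by its title. The mutant cells carried rix1E414K, an allele of rix1 with a single substitution named in the label, and the WT cells carried no named mutation. Cells of both groups carried pINV1-H3.2-FLAG, a plasmid from which the invertase (inv1) promoter drives FLAG-tagged H3. Both groups grew in EMM-Leu with 8% glucose, were held with 15 mM hydroxyurea (HU) for 4 h, and then spent 2 h in 4% sucrose with HU, and the tagged H3 was induced under the replication block. Cells were fixed with 1% formaldehyde for 20 min and sheared to 400 to 600 bp. On all arrays Cy5 labelled the FLAG-immunoprecipitated DNA and Cy3 the DNA of whole-cell extract, with no dye swap. The rix1E414K array shared a slide with WT replicate 2, and WT replicates 1 and 3 were on other slides.

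The rixosome is a nuclear complex of ribosome biogenesis in which Rix1 is a scaffold subunit beside Crb3, the ATPase Mdn1, the nuclease Las1 and the kinase Grc3. It matures the precursor of the large ribosomal subunit, and in fission yeast it also binds heterochromatin, where it takes part in RNA degradation and in the inheritance of silencing. Nucleosomes exchange their histones outside replication, fast at active promoters and slowly in heterochromatin, and tagged H3 made during a replication block reads that exchange. Transfer RNA (tRNA) genes are transcribed by RNA polymerase III, hold few nucleosomes, and flank the centromeres of this species, where some act as heterochromatin boundaries.

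The values below are log2 of Cy5 over Cy3, centred on the median of the 43993 probes of each array, so a level of 0 is that of the median probe. A shift shared by all probes cannot be seen, and total H3 was not measured. In these bulk samples, fewer cells with tagged H3 at a site and less of it per cell cannot be told apart. Probes are 60 bases long at steps of 50, and were averaged in 11000 windows of 200 bp and over 960 genes with at least 2 probes. Median processed signal was 1018 in Cy5 and 993.2 in Cy3 on the rix1E414K array, against 1057 to 1150 and 1063 to 1145 on the WT arrays. The window values of rix1E414K correlated with WT replicates 1, 2 and 3 at r = 0.85, 0.81 and 0.90, and the WT arrays with each other at r = 0.82 to 0.87, as a description across windows of shared fragments. The gene rix1 has no probe, so the genotype could not be checked on the array. Coordinates are those of the array. On chromosome II, array positions exceed those of the reference assembly ASM294v3 by 900 bases up to 1617470 and by 1800 bases from 1618511 on, with no probe between. Because there is 1 mutant array, its difference from the WT mean stands beside the SD of the 3 WT arrays, and "below" or "above all WT arrays" describes an order with no test. With 1 array against 3, the smallest one-sided p of an exact permutation test is 0.25.

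The regions below all WT arrays in rix1E414K include clusters of RNA polymerase III genes, and 5 of these genes are shown because the results return to them. The sequences are those of ASM294v3 from RefSeq, 5′ to 3′ on the strand of the gene. Capitals mark a form of the B box, the internal promoter element of tRNA genes, spelled GGTTCGA, any 2 bases, CC.
SPBTRNALEU.06 (tRNA-Leu, left outer cluster, chrII:1598745-1598845, minus strand): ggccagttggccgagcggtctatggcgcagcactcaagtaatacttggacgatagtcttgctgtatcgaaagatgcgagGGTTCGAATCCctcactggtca
SPBTRNAARG.07 (tRNA-Arg, right outer cluster, chrII:1647283-1647355, minus strand): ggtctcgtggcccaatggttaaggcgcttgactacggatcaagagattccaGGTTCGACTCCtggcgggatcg
SPBTRNAVAL.07 (tRNA-Val, beside the central core, chrII:1629159-1629241, plus strand): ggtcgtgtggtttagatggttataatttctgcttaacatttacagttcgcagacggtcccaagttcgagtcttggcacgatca
SPBTRNAGLY.09 (tRNA-Gly, on the arm, chrII:2069487-2069557, plus strand): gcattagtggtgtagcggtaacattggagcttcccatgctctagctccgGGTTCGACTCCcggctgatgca
SPRRNA.40 (5S ribosomal RNA, on the arm, chrII:2442700-2442852, minus strand): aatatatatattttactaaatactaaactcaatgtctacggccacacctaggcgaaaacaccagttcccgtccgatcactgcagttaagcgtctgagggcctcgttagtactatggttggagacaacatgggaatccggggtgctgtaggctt
The motif, searched on both strands, was present in 97 of the 171 tRNA genes of the 3 chromosomes (56.7%), and in 24 of the 41 on the tiled part of chromosome II (58.5%). Of all 200 bp windows of chromosome II, 28 held it (0.267%). The tRNA-Val gene beside the core holds no exact match, and its copy on the other side of the core, SPBTRNAVAL.06, has the identical sequence. The tRNA-Leu and tRNA-Arg genes likewise have identical copies in the opposite outer cluster, SPBTRNALEU.07 and SPBTRNAARG.06. Of the probes over the genes, those matching several places were 100% for both tRNA-Leu genes, 50% for SPBTRNAARG.06 and 0% for SPBTRNAARG.07.

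At centromere 2, the ratio of Cy5 over Cy3 lay below every WT array in rix1E414K over both tRNA clusters at its outer edges. It was also below over the short stretches of tRNA genes beside the core and over the central core, but not over the outer repeats between them. The Cy5 signal alone was not lower in these regions, as given below by channel. The left outer tRNA cluster (II, 1598911 to 1603320) had a level of -1.89 in rix1E414K, against -1.31, -1.19 and -1.42 in WT replicates 1, 2 and 3. The right cluster (1645661 to 1649170) had -1.87 in rix1E414K, against -1.27, -1.16 and -1.41 in WT. Both clusters lay below all WT arrays by several times the WT SD: the differences were -0.58 and -0.59, with WT SDs of 0.11 and 0.13 (n = 3), or 0.67-fold and 0.664-fold. All 21 windows of the left cluster and all 17 of the right were below every WT array, where 24.2% of all windows were. Probes that match several places were 75% of the left cluster and 87.1% of the right, so the clusters are not separate observations. Over single-copy probes the differences were -0.55 in 6 windows of the left cluster and -0.53 in 2 windows of the right.

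The inner tRNA stretches (1620111 to 1621070 and 1630961 to 1631920) hold pairs of tRNA-Ile, tRNA-Ala and tRNA-Val genes. They had -1.93 in rix1E414K, against -1.52, -1.21 and -1.42 in WT, a difference of -0.54 with a WT SD of 0.16, and all 10 windows were below every WT array. The central core (1621061 to 1630970), where the H3 variant Cnp1 (CENP-A) replaces much of H3, had -3.89 in rix1E414K, against -3.60, -3.35 and -3.66 in WT. Its difference of -0.36 exceeded the WT SD of 0.16, and 45 of its 49 windows were below every WT array. Probes that match several places were 100% and 89.5% of the inner stretches and 30.3% of the core. Over single-copy probes the difference was -0.65 in 1 window of the inner stretches and -0.34 in 35 windows of the core. Against WT replicate 2 alone, on the same slide, the differences were -0.54 for the core, -0.71 for the inner stretches, and -0.69 and -0.71 for the outer clusters. The core result depended on scaling: its difference was 0.0020 after quantile normalization and -0.041 with all arrays scaled to one median absolute deviation (MAD), where 0 of 49 windows were below WT. The tRNA clusters kept their direction in both, at -0.28 and -0.31 after quantile normalization and -0.43 and -0.44 after scaling, but fewer windows were below every WT array: 14 of 21 and 13 of 17 after quantile normalization, and 10 of 21 and 9 of 17 after scaling. With normexp background correction the differences were larger, at -0.79 for the core, -0.97 for the inner stretches and -0.93 for the left cluster, and the core was at -0.59 without background subtraction.

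The outer repeats, the heterochromatic part of the centromere, had -0.84 on the left and -0.83 on the right in rix1E414K, inside the WT values of -0.53, -1.25 and -0.54 on the left and -0.52, -1.24 and -0.54 on the right. Of their 148 windows, 6 were below and 0 above all WT arrays. The WT SD was 0.41 and WT replicate 2 was the lowest array, and the difference was -0.067 against all WT arrays and 0.41 against that replicate alone. Between 92.4% and 95.9% of these probes match several places.

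The channels differed in unlike ways at the centromere. Over both outer tRNA clusters, log2 Cy5 relative to the array median was -1.01 in rix1E414K, against -1.03, -1.02 and -1.17 in WT. Log2 Cy3, the whole-cell extract, was 0.88 in rix1E414K, against 0.27, 0.15 and 0.24 in WT, a difference of 0.66 with a WT SD of 0.066. The lower ratio there stood with more extract signal and not with less immunoprecipitated signal. Over the core, Cy3 was 0.41 in rix1E414K, against -0.26, -1.42 and 0.083 in WT, while Cy5 was -3.49, against -3.87, -4.76 and -3.57. Over the inner stretches, Cy3 was 1.36 in rix1E414K, against 0.72, 0.14 and 0.56 in WT, and Cy5 was -0.57, against -0.82, -1.065 and -0.85. In the core and the inner stretches, both channels were thus above every WT array. Whether the extract DNA differed between the cultures or in its amplification was not tested.

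**Figure D1:**
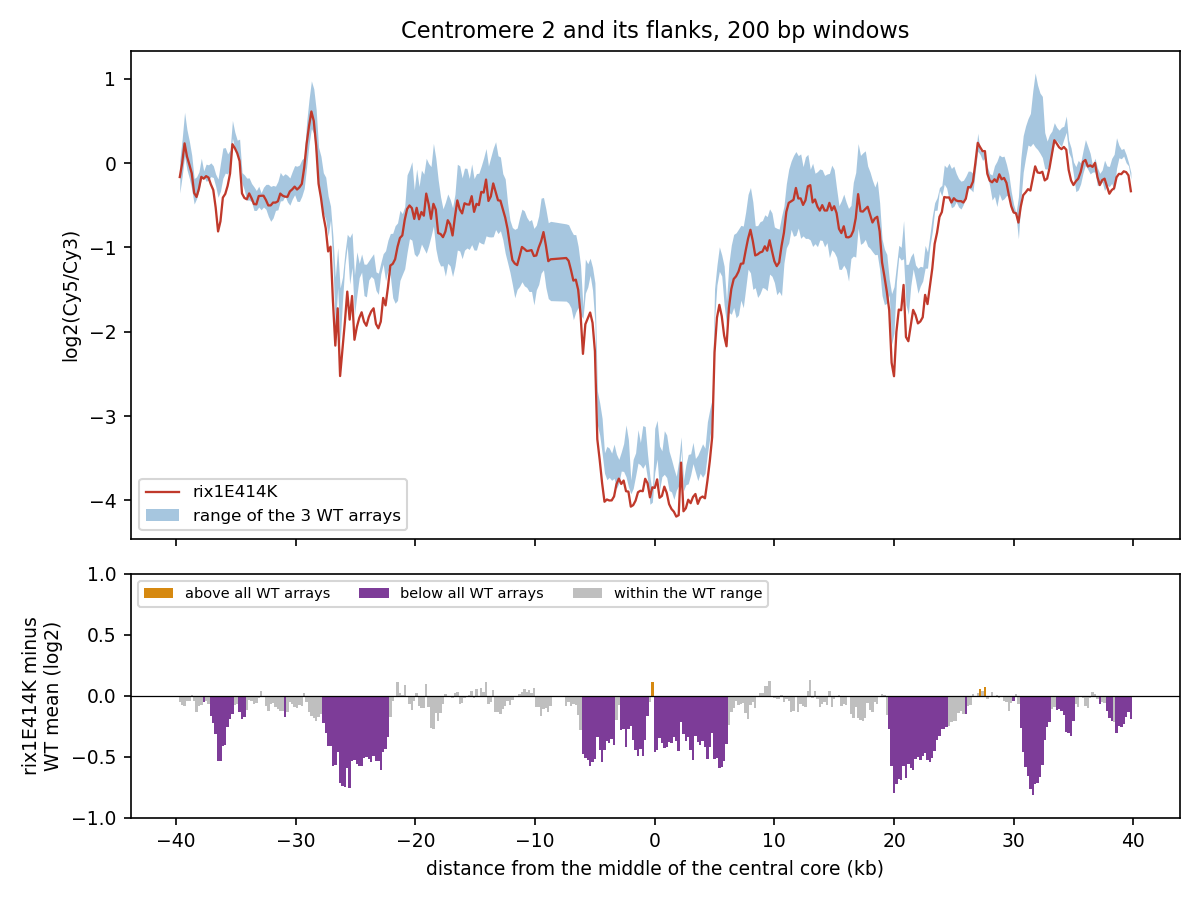
Newly made H3 along centromere 2 in 200 bp windows. The upper panel gives log2(Cy5/Cy3) of rix1E414K (red line) and the range of the 3 WT arrays (blue band) by distance from the middle of the central core in kb, and the lower panel gives rix1E414K minus the WT mean, where the outer tRNA clusters, the inner stretches and the core lie below the band, and the outer repeats lie inside it.

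Within 150 bp of their midpoints, all 27 tRNA genes of centromere 2 were below every WT array, where 24.2% of all 200 bp windows were. These genes lie in the outer clusters and inner stretches counted above. Some share probes with a neighbour, and many have copies on the other side of the core. The count thus restates those regions, and the genes are not separate observations. Their differences ran from -0.42 to -0.71, with a median of -0.53. The leucine tRNA genes had the largest differences: SPBTRNALEU.07 had -2.53 in rix1E414K, against -1.76, -1.54 and -2.15 in WT, and SPBTRNALEU.06 had -2.42, against -1.70, -1.46 and -2.04. Each also had the lowest WT mean of the tRNA genes of its cluster. The tRNA-Val genes beside the core had -2.33 and -2.34 in rix1E414K, against WT values from -1.59 to -2.02.

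On the arms, 9 of 14 tRNA genes were below every WT array and 0 above, with a median difference of -0.23. Of all 200 bp windows, 24.2% were below and 25% above. The mean of these 14 genes was -0.65 in rix1E414K, against -0.57, -0.28 and -0.44 in WT. WT replicate 1 was thus close to rix1E414K, and the WT SD was 0.15. SPBTRNAGLY.09 had -0.82 in rix1E414K, against -0.60, -0.52 and -0.42 in WT. Over its gene body, where Cy5 differed by 0.49 and Cy3 by 0.82, normexp turned the difference from -0.32 to 0.020. The methionine initiator gene imt06 had -0.17 in rix1E414K, within the WT values of -0.22, 0.45 and 0.22. The difference shrank with distance, from -0.22 within 150 bp to -0.056 at 750 to 1000 bp, and rix1E414K was inside the WT range from 1000 to 3000 bp. Among the windows that hold the B box motif, 21 of 28 were below every WT array (75%), where 24.8% of windows without it were. Among the 4 motif windows over 200 bp from any tRNA gene, 1 was below and 2 were above.

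The 5S ribosomal RNA genes, also transcribed by RNA polymerase III, were lower too, from a level above that of the median probe. All 7 were below every WT array within 150 bp, where 24.2% of all 200 bp windows were. The mean of the 7 genes was -0.065 in rix1E414K, against 0.35, 0.42 and 0.18 in WT, a difference of -0.38 with a WT SD of 0.12. With loess the difference was -0.23 and 6 of the 7 gene bodies were below. SPRRNA.40 had the largest difference, with -0.095 in rix1E414K, against 0.36, 0.45 and 0.27 in WT. Their surroundings were lower too: the level at 150 to 300 bp was -0.19, against 0.10, 0.21 and 0.029 in WT. From 500 to 1000 bp rix1E414K remained below all WT arrays, and from 1000 to 2000 bp it was above them. The 5S genes occur in several copies, and 66.7% of the SPRRNA.40 probes match several places. The channels differed between genes: over SPRRNA.40 the difference was 0.085 in Cy5 and 0.59 in Cy3, and over SPRRNA.35 it was -0.40 in Cy5 and 0.059 in Cy3.

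**Figure D2:**
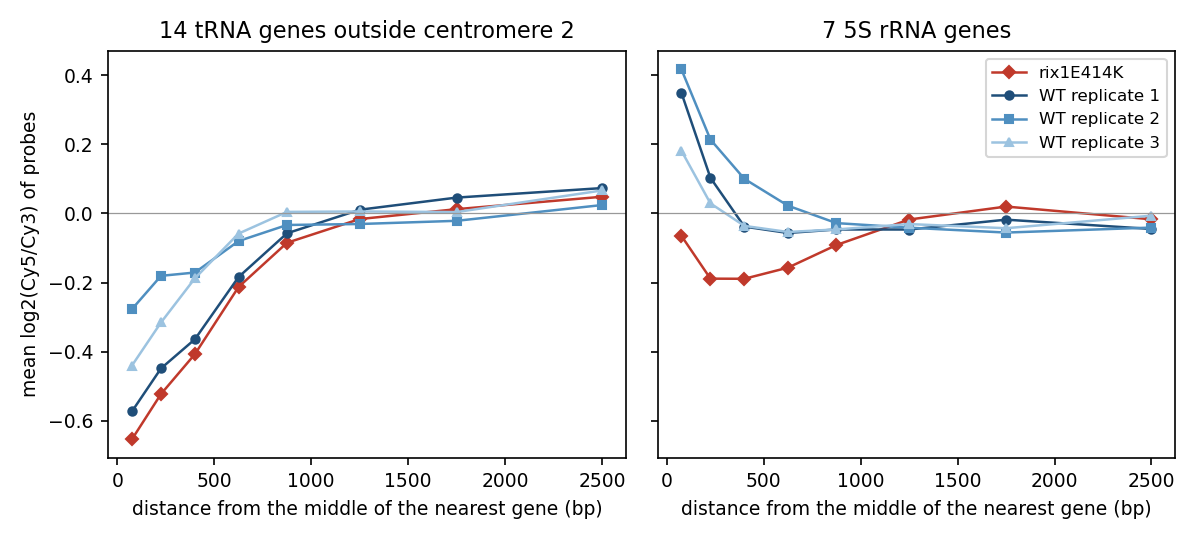
Mean log2(Cy5/Cy3) of probes by distance in bp from the middle of the nearest tRNA gene outside centromere 2 (left) or 5S rRNA gene (right), 1 line per array. Within 150 bp, rix1E414K is at -0.65 beside the tRNA genes and at -0.065 beside the 5S genes, below each WT array in both.

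Newly made H3 was higher in rix1E414K over the silent mating-type region. Fission yeast keeps silent copies of its mating-type genes there in heterochromatin. The interval as annotated in the reference (II, 2131011 to 2138920) had -0.20 in rix1E414K, against -0.54, -0.58 and -0.34 in WT. The difference of 0.29 (1.22-fold) exceeded the WT SD of 0.13, and 23 of 39 windows were above every WT array, where 25% of all windows were. Probes that match several places were 67.1% of the interval, and over single-copy probes the difference was 0.072 in 13 windows, 1 of which was above WT. Leaving out windows with a probe of dim extract signal gave -0.37 in rix1E414K, against -0.85, -0.90 and -0.47 in WT, with 22 of 33 windows above.

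The array also carries an extra sequence of 41210 bases, listed as one more chromosome, whose ends follow this region. Its first 24000 bases and those from 36000 on track chromosome II in probe signal, and the stretch between them does not match the reference. Homothallic strains hold a heterochromatic stretch between the silent cassettes, with similarity to the outer centromeric repeats, that the reference strain lacks. Whether the unmatched stretch is that one was not tested. It was divided here at 28601 and 33010 by its extract signal, into a left insert, a repeated stretch and a right insert, after the data were seen.

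The left insert (24001 to 28610) had the clearest higher level. It had -0.32 in rix1E414K, against -0.93, -1.13 and -0.64 in WT, and 22 of 23 windows were above every WT array. The difference was 0.57 (1.49-fold) with a WT SD of 0.25, and 0.81 within the slide. Here the immunoprecipitated channel differed more: Cy5 was -0.046 in rix1E414K, against -0.35, -1.03 and -0.16 in WT, and Cy3 was 0.28, against 0.59, 0.087 and 0.47.

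The left silent part (19451 to 24010) had 0.049 in rix1E414K, against -0.27, -0.33 and -0.19 in WT, with 17 of 23 windows above all of them. Of its probes, 22.3% had dim extract signal, and without windows that hold one the level was -0.19, against -0.73, -0.88 and -0.49, a difference of 0.52 with 16 of 16 windows above. The right silent part (36001 to 39610) had -0.53, against -1.05, -1.06 and -0.59, with 9 of 18 windows above. Both lay above the WT range, the right part by little, since WT replicate 3 was close to rix1E414K. Both parts follow the silent interval of chromosome II given above, so they and that interval are not separate observations. The right insert (33001 to 36010) had -0.22 in rix1E414K, within the WT values of -0.47, -0.67 and -0.19.

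The repeated stretch (28601 to 33010) showed no such shift, with -0.46 in rix1E414K inside the WT values of -0.038, -0.96 and -0.33, and 0 of 22 windows outside them. Its WT SD of 0.47 was larger than the difference of -0.015. The left flank (1 to 19460) had 0.34 in rix1E414K, against 0.28, 0.25 and 0.32 in WT, and the right flank (39601 to 41210) had -0.59, within -0.64, -0.55 and -0.29. In 1 kb steps, the level in rix1E414K was above all WT arrays in all 5 windows of each step from 23001 to 28010, with the largest difference, 0.74, at 25001 to 26010.

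**Figure D3:**
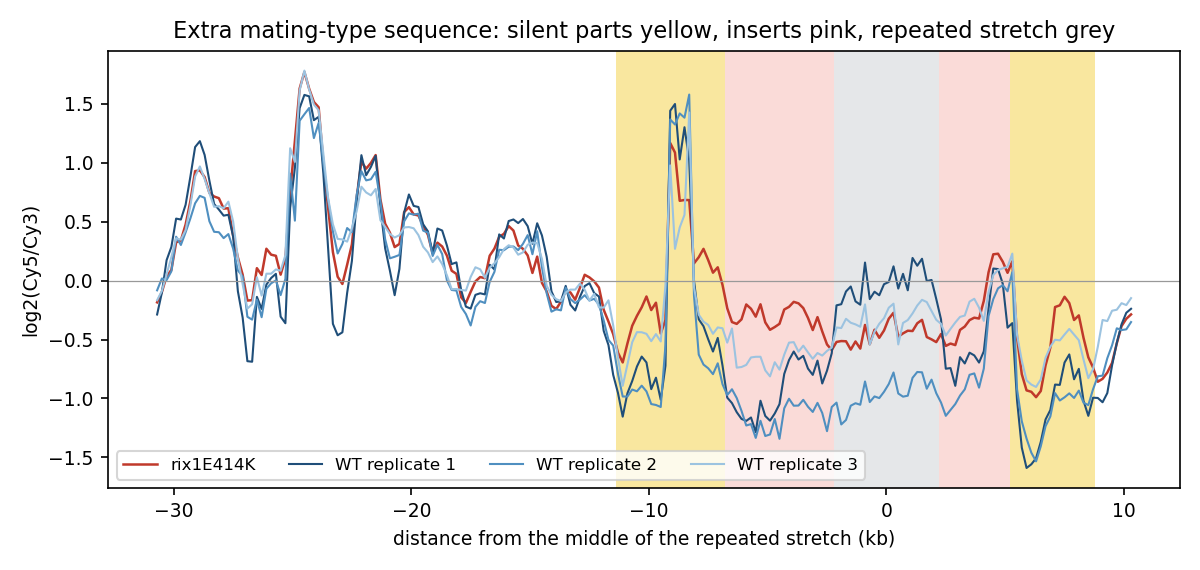
Newly made H3 along the extra mating-type sequence, as log2(Cy5/Cy3) of 200 bp windows by distance from the middle of the repeated stretch in kb, 1 line per array. In the left insert (pink, left of the grey repeated stretch) rix1E414K averages -0.32 and the WT arrays lie between -0.64 and -1.13.

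Other heterochromatic and repeated regions lay closer to the WT mean than 1 WT SD. The right telomeric region of chromosome II had -0.069 in rix1E414K, against -0.12, -0.54 and 0.066 in WT, and the subtelomere beside it had -0.36, against -0.44, -0.49 and -0.20. The telomeric helicase gene tlh2, with 92.5% of its probes repeated, had 0.020 in rix1E414K, against -0.014, -0.78 and -0.052, above all WT arrays by little, and its difference was 0.053 without WT replicate 2. The end of chromosome III within the ribosomal DNA had -0.33 in rix1E414K, against -0.31, -0.0089 and -0.58, and the remainder of that end had -0.22, against -0.30, -0.20 and -0.048. The Tf2 retrotransposons had 0.55 in rix1E414K, against 0.76, 0.57 and 0.40. In each of these regions rix1E414K lay within the WT range. With loess, however, the Tf2 difference was 0.27 and 2 of 2 elements were above all WT arrays.

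Patches at single genes were mixed. The patch at inv1, the sucrose-induced gene whose promoter is also on the plasmid, had 0.59 in rix1E414K, against 1.49, 1.04 and 0.66 in WT, with 11 of 15 windows below all WT arrays. Its difference of -0.48 was close to the WT SD of 0.42, and was -0.26 without WT replicate 1. The positions of this patch and of the one at nmt1 on the reference were not settled. The plasmid shares sequence with inv1 and hht2, and its part in their values was not tested. The patch at nmt1, a thiamine-repressed gene, had 0.71 in rix1E414K, within the WT values of 1.41, 1.47 and 0.63. The patch at hrp1, a chromatin remodeller gene on chromosome I, had -0.027 in rix1E414K, against -0.18, -0.18 and -0.076, with 14 of 25 windows above and a difference of 0.12 at a WT SD of 0.058.

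**Figure D4:**
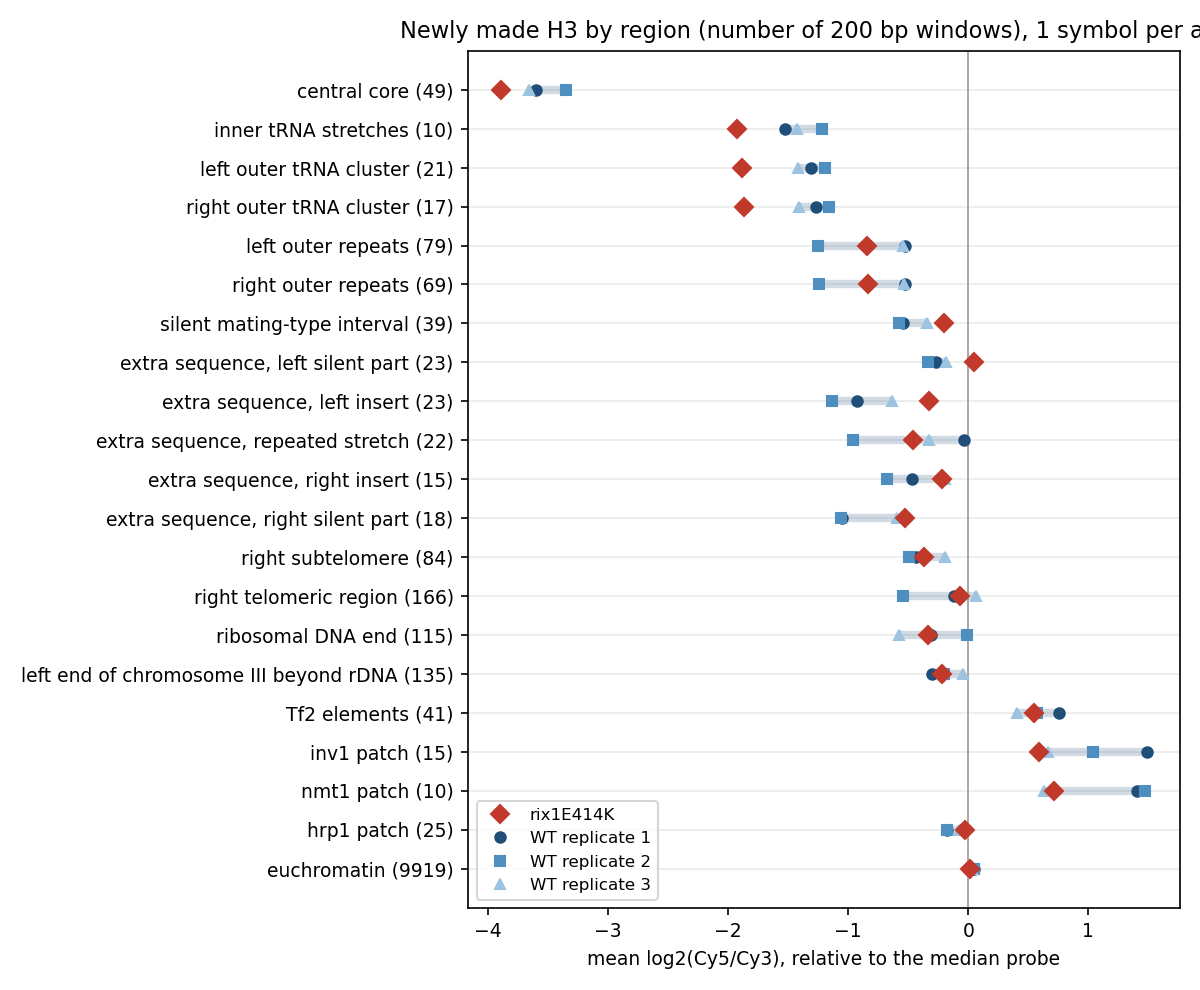
Mean log2(Cy5/Cy3) of each region (rows, with the number of 200 bp windows), 1 symbol per array, with rix1E414K as red diamonds and a bar over the WT range. The 3 tRNA regions and the central core lie left of the bar, and the silent mating-type interval and the left insert lie right of it.

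Across the array as a whole, limma 3.58.1 called 0 of 11000 windows, 0 of 43988 probes and 0 of 960 genes at an adjusted p of 0.05, with smallest adjusted p of 0.999, 1.00 and 0.709. At an unadjusted p of 0.05, 122 windows were higher (1.11%) and 394 lower (3.58%). At that level 396 probes were higher (0.9%) and 1333 lower (3.03%), and 15 genes were higher (1.56%) and 43 lower (4.48%). Of the probes, 23.6% were above all WT arrays and 23.5% below. Without WT replicate 3, the WT array nearest to rix1E414K at eno101, fba1, hsp16 and snoU14, limma called 38 windows and 4 genes, all lower, and 144 probes, of which 143 were lower. Of the windows, 2747 were above all WT arrays (25%) and 2659 below (24.2%). Beyond that range the counts were unequal: 82 windows lay more than 0.5 below the lowest WT array (0.745%) and 5 more than 0.5 above the highest (0.0455%), a margin chosen after the values were seen. All 5 were in the extra sequence between 23001 and 25010, 4 of them in the left silent part. The silent interval of chromosome II, which that part follows, had 0 such windows. Of the 82, 8 were in the outer tRNA clusters and 74 in euchromatin, and they formed 19 loci.

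The 5 largest of these loci held 40 of the 82 windows and included 3 genes with lower levels over their coding regions. Of the 5, the locus at 1266211 to 1267420 held 6 windows. So did those holding snoU14 and aha1 and that at 1943111 to 1944320, where the difference was -0.80 with a WT SD of 0.18. Among these equals it was taken for its largest gap below WT. Enolase, encoded by eno101 (II, 2202996 to 2204452), is a glycolytic enzyme. The level over eno101 was -1.40 in rix1E414K, against 0.60, 0.38 and -0.34 in WT. Over fba1 (1690121 to 1691399), which encodes fructose-bisphosphate aldolase, it was -0.93, against 0.56, 0.36 and -0.12. In hsp16 (2661939 to 2662792), a small heat shock protein gene, it was -2.29, against 0.49, 1.03 and -1.18. Each was below all WT arrays, and in each the WT arrays were themselves spread, with WT replicate 3 the lowest of them.

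The differences were -1.61 for eno101 (SE 0.36), -1.20 for fba1 (SE 0.27) and -2.40 for hsp16 (SE 0.84), and each had a limma adjusted p of 0.709. Against WT replicate 2 on the same slide they were -1.77, -1.29 and -3.32. With normexp the differences were smaller, at -0.54 for eno101, -0.76 for fba1 and -0.69 for hsp16. The immunoprecipitated channel was lower by more than the ratio, with Cy5 differences of -2.19, -1.72 and -2.85. The extract channel was lower too, with Cy3 differences of -0.57, -0.52 and -0.44. At hsp16, log2 Cy5 relative to the array median was -4.70 in rix1E414K, against -1.21, -0.0034 and -4.35 in WT, so rix1E414K and WT replicate 3 were both at low signal. Without WT replicate 3, limma gave an adjusted p of 0.0449 for eno101, fba1, hsp16 and the small nucleolar RNA gene snoU14. At snoU14 the level was -0.60 in rix1E414K, against 0.90, 0.69 and -0.11 in WT. The genes more than 0.5 below the lowest WT array were 5 of 960 (0.521%): eno101, fba1, hsp16, SPBTRNAARG.06 and SPBTRNAARG.07, and 0 were as far above the highest.

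The other 2 of these loci lay beside genes. Over 1080811 to 1082420, in front of mas5, an Hsp40-type chaperone gene that starts at 1082275, the difference was -1.13 with a WT SD of 0.34. Over 1266211 to 1267420, which holds none of the genes used here (long noncoding RNA genes were left out), it was -0.83 with a WT SD of 0.087. The stretch of windows around that second locus, 1264611 to 1269820, includes the pseudogene SPBC31A8.02, which had -0.39 in rix1E414K, against 0.067, 0.12 and 0.18 in WT. The gene aha1, for an activator of the chaperone Hsp90, had -0.25, against 0.80, 0.49 and 0.23. Both mas5 and aha1 were singled out after their values were seen. At SPBC31A8.02 the Cy5 and Cy3 differences were -0.27 and 0.24.

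By gene list, 3 of the 4 glycolytic genes were below all WT arrays and 1 above, where 24.6% of all genes were below and 30.7% above. The median difference of the list was -0.86, against 0.0031 over all genes. The lists were chosen with earlier results of these data known, and this one holds eno101 and fba1. Its count and median thus restate their values in part and are no separate support. Beside eno101 and fba1, tdh1 for glyceraldehyde-3-phosphate dehydrogenase had -0.26 in rix1E414K, against 0.28, 0.44 and 0.064. The exception was pfk1, the phosphofructokinase gene, with 0.49, against 0.36, 0.18 and 0.22. Of 5 core stress genes, 3 were below and 1 above. The peroxidase gene gpx1 had 0.17 in rix1E414K, against 0.82, 0.67 and 0.28, and the stress gene lsd90 had 0.77, against 0.55, -0.047 and 0.67, a difference that was 0.16 without WT replicate 2. The nuclear envelope gene ish1 had 0.55, within 1.27, 0.85 and 0.50. Of 14 small nuclear and nucleolar RNA genes, 5 were below and 0 above, with a median of -0.10. Among them snR42 had -0.50 in rix1E414K, against -0.17, -0.15 and -0.20, snoZ15 had -0.34, against 0.13, 0.028 and -0.14, and sno20 had 0.40, against 1.1, 0.89 and 0.42.

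Protein-coding genes of ribosome production gave smaller differences than the 5S genes. Of all genes, 30.7% were above all WT arrays and 24.6% below. Of 25 ribosomal protein genes, 12 were above all WT arrays and 2 below, with a median difference of 0.052, and 20 had a positive difference. The gene rpl401 had 0.25 in rix1E414K, against 0.062, 0.021 and 0.12 in WT. The gene rps21 had -0.12, against 0.13, 0.032 and -0.030. The gene rps2501 had -0.55, within -0.39, -0.57 and -0.12. Of 10 ribosome biogenesis genes, with no rixosome subunit among them, 3 were above, 1 below and 6 within the WT range, and their differences lay between -0.082 and 0.12. The fibrillarin gene fib1 had 0.22 in rix1E414K, against 0.043, 0.083 and 0.17. The biogenesis factor gene erb1 had -0.0020, against -0.018, -0.13 and -0.13, and nop8 had 0.11, against 0.20, 0.19 and 0.18.

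Histone and chaperone genes split. The H3 gene hht2, of the H3.2 form that the plasmid also carries, had 1.34 in rix1E414K, within 1.59, 1.74 and 1.19 in WT. Its neighbour, the H4 gene hhf2, had 0.26, against 0.75, 0.59 and 0.38, and the H2A.Z gene pht1 had -0.43, against -0.34, -0.16 and -0.35. Of 4 histone chaperone and chromatin remodeller genes, 2 were above and 0 below, where 30.7% of all genes were above and 24.6% below. The HIRA subunit gene slm9 had 0.40 in rix1E414K, against 0.13, 0.17 and 0.12, and the nucleosome assembly gene nap2 had 0.090, within 0.072, 0.12 and -0.025. Both heterochromatin factor genes with probes were above all WT arrays. The repressor gene clr1 had 0.10, against 0.018, 0.011 and -0.084. The gene tas3, of the RNA-induced transcriptional silencing (RITS) complex, had 0.077, against -0.041, 0.054 and -0.048. The nuclear rim gene amo1 had 0.32, against 0.21, 0.15 and 0.11, and the nucleoporin gene nup44 had 0.16, against 0.083, 0.026 and 0.063.

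Of 2 S-phase genes of the MBF transcription factor, 1 was below all WT arrays and 1 within. The replication licensing gene cdc18 had 0.33 in rix1E414K, within 0.72, 0.44 and 0.32 in WT, and the repressor gene yox1, beside the right outer tRNA cluster, had -0.41, against -0.046, -0.33 and -0.11. Of 6 meiotic genes, 2 were above, 1 below and 3 within. The shares over all genes were 30.7% above and 24.6% below. The meiotic cohesin gene rec8 had 0.29, against 0.20, 0.21 and 0.13, and rec15 of meiotic recombination had 0.28, against 0.38, 0.38 and 0.31.

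Higher genes differed by less. The 10 with the smallest limma p among those above all WT arrays each had an adjusted p of 0.709, and the 9 given here had differences of 0.23 to 0.31. The gene gcv3, for a glycine cleavage subunit, had 0.44 in rix1E414K, against 0.090, 0.19 and 0.14. The gene sec6102, of the translocon, had 0.40, against 0.13, 0.14 and 0.16. The gene prs1, for prolyl-tRNA synthetase, had 0.23, against -0.075, -3.0e-05 and -0.063. The others were slm9, atg9, fnx2, mug98, ubc1 and ctu1. Among those lower, dbl7 had -0.44 in rix1E414K, against -0.022, -0.081 and -0.046.

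**Figure D5:**
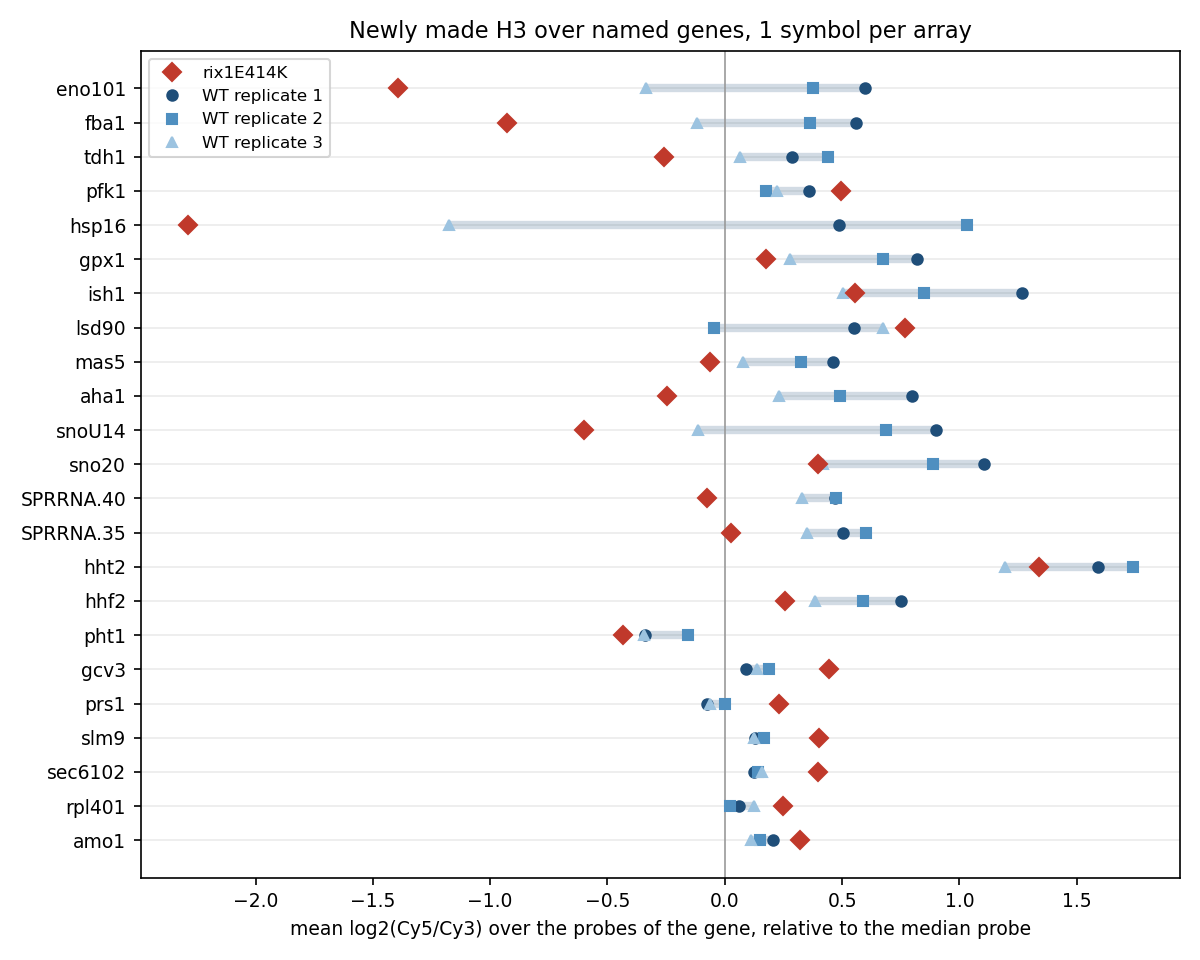
Mean log2(Cy5/Cy3) over the probes of named genes (rows), 1 symbol per array, with rix1E414K as red diamonds and a bar over the WT range. At eno101, fba1 and hsp16 the diamond is left of all WT symbols and WT replicate 3 is the lowest WT array.

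Those 9 genes all start at 2384250 or beyond. Of the 8 euchromatic blocks of up to 100 kb before 1800120, rix1E414K was below all WT arrays in 7. Of the 13 from there to 3049820 it was above all of them in 6. The last, from 3000111 to 3049820, had 0.35 in rix1E414K, against 0.20, 0.23 and 0.16 in WT, with 73.1% of its windows above. The block beside the centromere, from 1649111 to 1700120, had -0.090, against 0.17, 0.071 and 0.091, with 51.8% of its windows below. Over all euchromatic windows, 26.1% were above and 25% below. In all, 324 stretches of at least 3 neighbouring windows were above all WT arrays and 302 below. Beside the left insert, the stretches with the largest summed gap above WT were 2622111 to 2627520 in mot1, 3022911 to 3028720 over zng1, naa30, atg9, SPBC15D4.08C and met3, and 3017311 to 3021120 over slm9 and gpt2. Their mean differences were 0.31, 0.22 and 0.27. Those furthest below were 2200911 to 2205320 (eno101, cut2), 2660911 to 2666120 (hsp16 and 4 neighbours), 1264611 to 1269820 and the 2 outer tRNA clusters, with -0.90, -0.94, -0.54, -0.53 and -0.51. With normexp the order changed, to -0.49 and -0.30 for the eno101 and hsp16 stretches and -0.87 and -0.73 for the left and right tRNA clusters.

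Position within genes gave small differences. In the 500 bp before genes of at least 1500 bp, rix1E414K lay between -0.073 and -0.11 in steps of 100 bp. It was inside the WT range in each step, with WT replicate 1 the lowest and WT replicate 2 the highest. After gene starts it was below all WT arrays from 100 to 300 bp, and above them at 600 to 700 and 800 to 1000 bp. In those higher steps the difference from the WT mean was 0.033 to 0.044. WT replicate 1 was close to rix1E414K there, with 0.1013 against 0.1022 at 600 to 700 bp. From 300 bp before to 500 bp after gene ends it was below all WT arrays in each step, with differences from -0.028 to -0.047. Between divergent genes the mean was -0.16 in rix1E414K, within the WT values of -0.20, 0.016 and -0.062. Between convergent genes it was -0.13, against -0.0036, 0.038 and 0.0023, below all WT arrays with a difference of -0.14 and a WT SD of 0.022. Of all 200 bp windows, 24.2% were below every WT array and 25% above. Of 53 convergent intergenic regions, 24 were below every WT array (45.3%) and 3 above. Of 195 divergent ones, 56 were below (28.7%) and 18 above, and of 282 between tandem genes, 89 were below (31.6%) and 52 above. These means weight regions equally, and the differences from WT were then -0.077 for divergent and -0.14 for convergent regions. As means over probes, the differences were -0.13 for divergent and -0.10 for convergent regions, so their order depended on the weighting.

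Euchromatic windows with the highest WT levels were lower in rix1E414K. In the 59 euchromatic windows with a WT mean of 1 or more, the mean was 0.83 in rix1E414K, against 1.36, 1.14 and 1.02. Of these windows 66.1% were below all WT arrays, where 25% of all euchromatic windows were. In the 3157 windows with a WT mean of 0 to 0.25, the difference was 0.00088 and 21.9% were below. At the low end, the 205 windows with a WT mean of -1 to -0.5 differed by -0.11, within the WT range, and 28.8% were below. Windows were sorted by the same WT values here, so these values are a description. Across 10769 windows with a GC content, the difference correlated with GC at r = 0.14 and with the WT mean at r = -0.016, as a description across neighbouring windows. Among euchromatic windows, those under 25% GC differed by -0.13, within the WT range. Those at 50% GC or more differed by -0.15, below all WT arrays.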

How the data were processed

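Newly made FLAG-tagged H3 was measured on Agilent tiling arrays in rix1E414K (1 array) and WT (3 arrays), 4 of the 6 arrays of the study. Per the file headers, the authors read the scans with Agilent Feature Extraction 12.0.3.1. Its processed signals, background-subtracted and dye-normalized, were used as deposited, as linear intensity per probe, and the deposited series table holds their linear ratio of Cy5 over Cy3, equal to within a relative difference of 9.05e-09. Its medians were 1.02 for rix1E414K and 0.998 to 1.01 for WT.

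From the intensities, log2(Cy5/Cy3) was computed here, 1227 control spots and outlier-flagged spots (at most 2 per array) were left out, and each array was centred on its median. Means were taken over 200 bp windows and over genes, each with at least 2 probes. limma 3.58.1 (R 4.3.3; lmFit, eBayes, Benjamini-Hochberg at 0.05) was run on windows, probes and genes. All 2 residual degrees of freedom came from WT, and the single rix1E414K array was taken to have the same variance. Separate cultures are not stated in the labels, and p-values then reflect only the spread among these arrays, which can be technical. The fit was tested on simulated data. Regions, lists and profiles got no test.

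The array files name no genome build. Probes were placed by correlating signal with the GC content of ASM294v3, and the best offset lay within 15 bases of the used one in 25 of 25 windows. Names come from RefSeq, and long noncoding RNA genes were left out.

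The members and lists were chosen with earlier results of these data known. Genes were named by rule: rix1, amo1, pob3, inv1, hht2 and tlh2 where they have probes, the 10 with the smallest p per direction among genes outside the WT range, from each list at most the 3 members furthest from WT in absolute terms, and for windows the 5 stretches per direction with the largest summed gaps. The alternatives were normexp, no background subtraction, loess, quantile normalization, scaling to one MAD, dim probes out, single-copy probes, slide as a block, each WT replicate left out, outlier spots kept, 1 kb windows and all 6 arrays in the fit. Normexp used median signals, in place of the planned mean signals, which the files used here do not include. A margin of 0.5 beyond the WT range and leaving out windows with dim extract signal were added after seeing the data. The result for 1 gene and 1 stretch that these rules name is not reported here.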

Additional observations from a re-analysis of the deposited data

How the results depend on the processing

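No paired analysis was possible because the title of the rix1E414K array carries no replicate number and its slide holds 1 WT array only, a single pair with no spread, so the difference within the slide is a value with no test. Calls by limma numbered 0 under each setting run except without WT replicate 3: leaving out each WT replicate in turn gave 0 to 38 windows, 0 to 144 probes and 0 to 4 genes, the highest without replicate 3. Windows more than 0.5 beyond the WT range then numbered 5 to 45 above and 107 to 236 below, and the median of the ribosome biogenesis list was -0.011 to 0.013. The slide as a block gave, against WT replicate 2, -0.54 for the central core, -0.71 for the inner tRNA stretches, -0.69 for the left outer tRNA cluster, 0.41 for both outer repeats, 0.47 for the telomeric region, -0.32 for the ribosomal DNA end, 0.50 for the repeated stretch, -0.70 and -0.38 around centromeric and other tRNA genes, -0.24 for small RNA genes, 0.046 for ribosome biogenesis genes and 0.017 for meiotic genes. Quantile normalization gave 0.0020 for the core, a reversed sign, -0.23 for the inner stretches, -0.28 and -0.31 for the outer clusters, -0.26 around centromeric tRNA genes, -0.0061 for euchromatin and 20 windows more than 0.5 above WT. Scaling to one MAD gave -0.041 for the core, -0.43 and -0.44 for the outer clusters, -0.40 around centromeric tRNA genes and 13 such windows. Normexp gave -0.79 for the core, -0.97 for the inner stretches, -0.93 and -0.85 for the outer clusters, -0.87 around centromeric tRNA genes, -0.85 and -0.46 for the medians of the tRNA and glycolytic lists, 0.16 and 0.035 for those of heterochromatin factors and ribosome biogenesis, -0.064 for convergent regions as a mean over probes, -0.013 for euchromatin, 0.13 for the left flank, 0.52 for the left silent part, 57 windows above and 146 below, and 0.020 for SPBTRNAGLY.09, a reversed sign. Loess gave 0.27 for Tf2 elements by region and by list, a reversed sign, with 2 of 2 elements above all WT arrays. It also gave -0.19 and -0.23 for the 5S list and the surroundings of its genes, and 0.052 for chaperone genes. The core was at -0.59 without background subtraction. Leaving out dim probes gave 0.50 for the left silent part. Single-copy probes gave 0.072 for the silent interval and 0 windows more than 0.5 above WT, since the extra sequence has no placed probe and drops out. The other causes were not tested. Of 653 values of named genes, 577 moved by less than the WT SD, and of 119 values of stretches, 97 did.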
